A study of Mus musculus with 6 samples.

Results

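Platelet-derived growth factor B (Pdgfb), its receptor gene Pdgfrb and 8 genes that mark the mural cells of blood vessels were followed in RNA of splenic endothelial cells. The 10 genes were chosen by symbol as Pdgfb, Pdgfrb, Acta2, Myh11, Tagln, Cnn1, Des, Rgs5, Cspg4 and Notch3, and all 10 were found among the 23207 gene rows of the deposited count table. All 10 passed the filter on low counts, which kept 19745 genes. The 6 libraries came from 6 Apoe-knockout mice, 1 per mouse. In 3 mice (1603, 1604 and 1607) an antisense oligonucleotide (ASO, a short nucleic acid that lowers the RNA it pairs with) was directed against Mlkl, the gene of the pseudokinase that ruptures the cell membrane in necroptosis. The other 3 mice (1601, 1602 and 1608) received a control ASO. All 6 mice lacked apolipoprotein E and were fed a high cholesterol diet during the 8 weeks of ASO treatment, so no library comes from a mouse with intact Apoe or without that diet. The sources used here do not give the strain, age or sex of the mice, the ASO sequences or the way endothelial cells were isolated.

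PDGF-B is secreted by endothelial cells and held near the vessel wall, where it binds PDGFRβ on pericytes and smooth muscle cells, draws them to the vessel and keeps them there. Mature smooth muscle cells make a contractile apparatus, while pericytes lie along capillaries and carry fewer contractile proteins. In the spleen, smooth muscle surrounds the arteries and arterioles. The genes are not exclusive to mural cells: reticular fibroblasts of lymphoid organs also carry PDGFRβ and desmin, and platelets and macrophages can make PDGF-B.

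Library totals ranged from 59988846 to 87776706 estimated counts. Levels are in CPM, counts scaled to a common library total, after TMM scaling, which sets libraries to a common scale by the genes they share. They can be compared between mice but not between genes of different length. Endothelial genes were abundant in every library, with summed levels over 12 markers of 4003 to 4540 CPM in MLKL ASO mice and 3214 to 6000 CPM in control ASO mice. RNA of other cells was abundant too. Over the 6 mice, 12 lymphocyte markers summed to 4208 to 13301 CPM and 9 erythroid markers to 28137 to 97782 CPM. Globin genes made up 4.77% to 15.1% of counts. Mlkl measured 7.53, 5.81 and 3.74 CPM in MLKL ASO mice 1603, 1604 and 1607, against 30.7, 31.2 and 38.0 CPM in control ASO mice 1601, 1602 and 1608, so target and labels go together in each mouse. Control ASO mouse 1608 stood apart on the first principal component of log2 CPM, at 92.0 against 16.3 or less in the other mice, and results that rest on it are given with and without it. Over all genes, the edgeR quasi-likelihood test with Benjamini-Hochberg adjustment over 19745 genes called 1 gene higher and 1 lower in MLKL ASO mice at an adjusted p under 0.05 (4 higher and 0 lower when libraries were scaled by their endothelial marker counts).

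Pdgfb was lower in each MLKL ASO mouse than in any control ASO mouse, whereas the mural cell genes were spread so widely among the control ASO mice that the groups overlapped. None of the 10 genes passed edgeR's adjusted threshold (0 of 10 higher and 0 of 10 lower), where the background over all genes was 0.00506% in each direction. At an unadjusted p under 0.05, 1 of the 10 was lower and 0 higher, against 6.96% lower and 4.89% higher over all genes, and that gene was Pdgfb. DESeq2 called 1 of the 10 lower, again Pdgfb, with a background of 1.48% lower and 1.14% higher. Limma-voom with sample weights called 0, with a background of 0.0658% lower and 0.0456% higher. The groups were apart, with every MLKL ASO mouse lower, for 1 of the 10 genes, where this held for 9.71% of all genes (9.02% with every MLKL ASO mouse higher).

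Pdgfb, the ligand, measured 8.90, 8.67 and 8.97 CPM in MLKL ASO mice 1603, 1604 and 1607, against 14.7, 17.6 and 15.9 CPM in control ASO mice 1601, 1602 and 1608. The 3 values of the MLKL ASO group lay close together, all below the lowest control value, and mouse 1608 sat between the other control mice. Group means were 8.84 ± 0.158 CPM with the MLKL ASO and 16.0 ± 1.44 CPM with the control ASO (SD, n = 3 each), a level 1.81-fold higher in control ASO mice. The log2 fold change was -0.86 ± 0.15 (SE), with a 95% interval of -1.21 to -0.51. EdgeR's quasi-likelihood adjusted p of 0.183 missed the threshold, and the exact two-sided permutation p was 0.1, which is as small as 3 mice per group permit. Pdgfb passed in DESeq2 (adjusted p = 9.6e-06 at a log2 fold change of -0.85) and in the authors' deposited table (adjusted p = 0.00139 at -0.78), and not in limma-voom (adjusted p = 0.067 at -0.92). The fold change was -0.87 without mouse 1608 and between -0.93 and -0.79 when each mouse was left out in turn. Fewer cells of a type and less RNA per cell cannot be told apart in bulk libraries, for this gene and for those that follow.

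Platelets, megakaryocytes and macrophages are other possible sources of Pdgfb RNA. All 12 platelet and megakaryocyte markers had positive log2 fold changes, with a median of 0.98 (0.52 without mouse 1608). Their summed level was 1548 to 3257 CPM in MLKL ASO mice and 120 to 1817 CPM in control ASO mice. Mouse 1608, with the lowest platelet marker level of all libraries, had a Pdgfb level in the middle of the control group. Macrophage markers summed to 1028 to 1319 CPM in MLKL ASO mice and 889 to 1725 CPM in control ASO mice. Of these markers, 7 of 12 had negative log2 fold changes (median -0.06), and 9 of 12 without mouse 1608 (median -0.30). The endothelial marker list had 8 of 12 genes below 0 (median -0.13), but 4 of 12 without mouse 1608 (median 0.11), which was highest for 10 of 12. Scaling the libraries by the counts of this list left the Pdgfb log2 fold change at -0.82. Its edgeR adjusted p in that setting was 0.9999, against 0.183 with TMM scaling. The part of these cells in the Pdgfb difference was not tested.

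**Figure D1:**
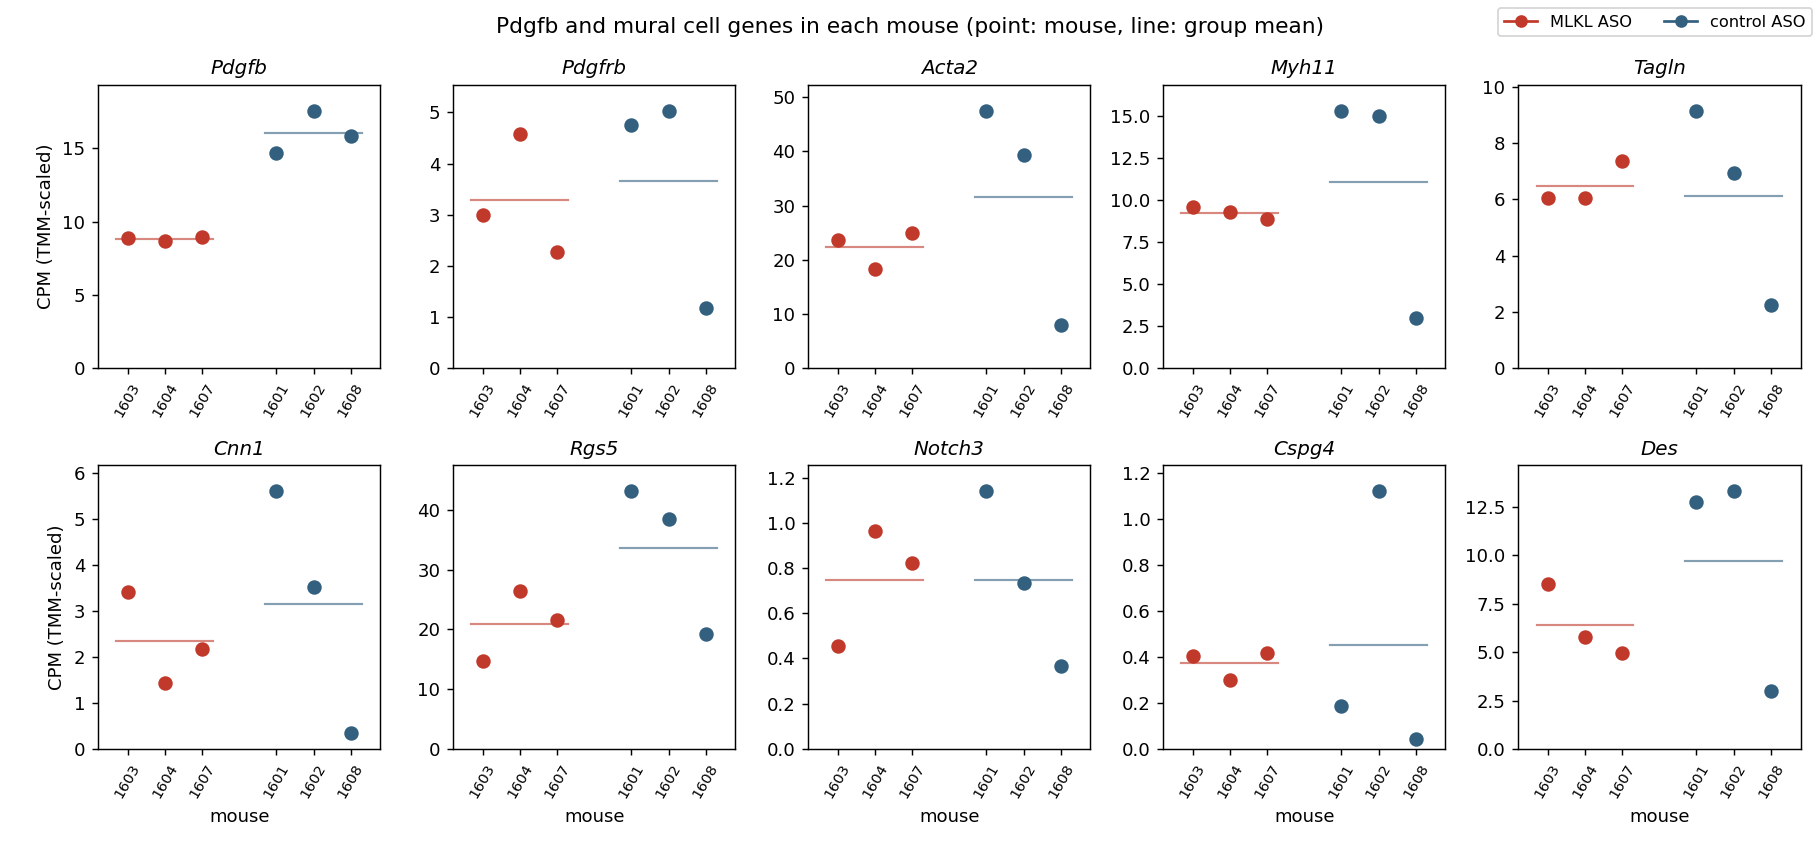
TMM-scaled CPM (vertical axis, each panel with its own scale from 0) of Pdgfb and the mural cell genes in each of 6 mice, with the 3 MLKL ASO mice in red on the left and the 3 control ASO mice in blue on the right, and a line at each group mean. Pdgfb lies at 8.67 to 8.97 CPM in MLKL ASO mice and 14.7 to 17.6 CPM in control ASO mice without overlap, while most other panels show mice 1601 and 1602 at the top and mouse 1608 at the bottom.

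Pdgfrb, which encodes the tyrosine kinase receptor for PDGF-B on mural cells, measured 3.0, 4.57 and 2.27 CPM in MLKL ASO mice 1603, 1604 and 1607, against 4.75, 5.03 and 1.18 CPM in control ASO mice 1601, 1602 and 1608. The groups overlapped, since control mice held both the highest values and the lowest. Its log2 fold change was -0.16 ± 0.54 (SE; edgeR adjusted p = 0.943), and its 95% interval reached from -1.43 to above 1, so neither direction was resolved. Without mouse 1608 it was -0.57 ± 0.33 (SE; edgeR adjusted p = 0.459).

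Among the contractile genes, Acta2 encodes smooth muscle α-actin, the thin filament protein of the contractile apparatus. It measured 23.7, 18.4 and 24.9 CPM in MLKL ASO mice 1603, 1604 and 1607, against 47.5, 39.2 and 8.07 CPM in control ASO mice 1601, 1602 and 1608. The MLKL ASO mice thus lay between control mice 1601 and 1602 above them and control mouse 1608 below them. Acta2 transcription depends on serum response factor, which binds the CArG box, an element of A and T bases between CC and GG. In the RefSeq window of Acta2 (build GRCm38.p6, minus strand), 250 bases before the listed start were searched. A pair of matches with 1 departure from the A and T run was found, and they are shown because they are the only such matches among the genes with a window. The coordinates span all 30 bases printed, with the 10 matching bases in capitals and the bases around them in lower case:
Acta2 match at chr19:34255438-34255467: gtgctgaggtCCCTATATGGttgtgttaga
Acta2 match at chr19:34255388-34255417: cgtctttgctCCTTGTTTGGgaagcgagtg
The first match begins 84 bases before the listed start and the other begins 34 bases before it. In the GENCODE M21 annotation both lie inside an annotated exon of Acta2. The element reads as the same pattern on either strand, so each match was counted once. Windows were matched for 6 of the 10 genes, and Cnn1, Rgs5, Notch3, Cspg4 and Des held 0 matches in theirs. Pdgfb, Pdgfrb, Myh11 and Tagln were not matched. Over 32851 windows of this length, 8.59% held a match with at most 1 departure and 1.47% an exact one. These letters are a description of the sequence and were not tested as binding sites.

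Acta2 had a log2 fold change of -0.50 ± 0.55 (SE) over all mice (edgeR adjusted p = 0.756), and of -0.96 ± 0.17 (SE) without mouse 1608 (edgeR adjusted p = 0.113). Actin genes share long stretches of sequence, so the split of reads between them is uncertain. Actg2, the enteric smooth muscle actin, had 2.66, 1.93 and 2.64 CPM in MLKL ASO mice 1603, 1604 and 1607, against 6.82, 4.59 and 0.681 CPM in control ASO mice 1601, 1602 and 1608, the same order of groups as Acta2. The striated muscle actins Acta1 and Actc1 averaged 0.30 and 0.52 CPM in MLKL ASO mice and 0.125 and 0.258 CPM in control ASO mice. The cytoplasmic actin Actb measured 4634 to 5278 CPM in MLKL ASO mice and 5306 to 6641 CPM in control ASO mice, and the cytoplasmic actin Actg1 measured 622 to 728 CPM in MLKL ASO mice and 658 to 820 CPM in control ASO mice.

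Myh11, the myosin heavy chain of smooth muscle, measured 9.60, 9.27 and 8.84 CPM in MLKL ASO mice 1603, 1604 and 1607, against 15.3, 15.0 and 2.97 CPM in control ASO mice 1601, 1602 and 1608. The MLKL ASO values lay close together, and control values fell on either side of them. Its log2 fold change was -0.26 ± 0.53 (SE; edgeR adjusted p = 0.885), and -0.71 ± 0.16 (SE) without mouse 1608 (edgeR adjusted p = 0.147). Without control mouse 1601 it was 0.029 and without control mouse 1602 it was 0.013, so the sign itself depended on which control mouse was included.

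Tagln encodes transgelin (SM22α), an actin-binding protein of early and mature smooth muscle. It measured 6.04, 6.05 and 7.36 CPM in MLKL ASO mice 1603, 1604 and 1607, against 9.15, 6.95 and 2.24 CPM in control ASO mice 1601, 1602 and 1608. It was the contractile gene with the smallest difference, with a log2 fold change of 0.09 ± 0.46 (SE; edgeR adjusted p = 0.967). That value changed sign to -0.31 without mouse 1608, to -0.011 without MLKL ASO mouse 1607 and to -0.042 when libraries were scaled by endothelial marker counts.

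Cnn1, calponin, which binds actin and restrains myosin activity, measured 3.41, 1.43 and 2.17 CPM in MLKL ASO mice 1603, 1604 and 1607, against 5.60, 3.51 and 0.340 CPM in control ASO mice 1601, 1602 and 1608. Its highest value was 16.5-fold above its lowest, and both were in control mice. The log2 fold change was -0.43 ± 0.82 (SE; edgeR adjusted p = 0.876), -0.96 without mouse 1608 and 0.26 without mouse 1601. Des, desmin, the intermediate filament protein of muscle cells, measured 8.51, 5.80 and 4.98 CPM in MLKL ASO mice 1603, 1604 and 1607, against 12.8, 13.3 and 2.99 CPM in control ASO mice 1601, 1602 and 1608. Desmin thus had the same arrangement as Acta2 and Myh11, with a log2 fold change of -0.59 ± 0.53 (SE; edgeR adjusted p = 0.693), and of -1.02 ± 0.26 (SE) without mouse 1608 (edgeR adjusted p = 0.178).

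The 5 contractile genes Acta2, Myh11, Tagln, Cnn1 and Des together summed to 51.2, 40.9 and 48.2 CPM in MLKL ASO mice 1603, 1604 and 1607, against 90.3, 78.0 and 16.6 CPM in control ASO mice 1601, 1602 and 1608. Means were 46.8 ± 5.31 CPM with the MLKL ASO and 61.6 ± 39.5 CPM with the control ASO (SD, n = 3 each; exact two-sided permutation p = 0.5). The log2 ratio of the means was -0.40 over all mice, -0.84 without mouse 1608, -0.19 without mouse 1602 and -0.027 without mouse 1601. Set against the endothelial markers of the same library, their counts came to 1.13%, 1.02% and 1.14% in MLKL ASO mice 1603, 1604 and 1607, and to 2.81%, 1.68% and 0.277% in control ASO mice 1601, 1602 and 1608. The group that differed within itself was the control group.

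Of the genes used to mark pericytes, Rgs5 encodes a regulator that shortens G protein signalling. It measured 14.7, 26.4 and 21.6 CPM in MLKL ASO mice 1603, 1604 and 1607, against 43.1, 38.4 and 19.2 CPM in control ASO mice 1601, 1602 and 1608. Mouse 1608 was within the MLKL ASO range here, not below it. The log2 fold change was -0.68 ± 0.33 (SE), with a 95% interval of -1.46 to 0.10 (edgeR adjusted p = 0.469), and -0.96 ± 0.24 (SE) without mouse 1608 (edgeR adjusted p = 0.171). Cspg4, the NG2 proteoglycan of pericytes and glial progenitors, measured 0.406, 0.302 and 0.418 CPM in MLKL ASO mice 1603, 1604 and 1607, against 0.186, 1.12 and 0.0426 CPM in control ASO mice 1601, 1602 and 1608. These rest on 3 to 93 counts per library, and the log2 fold change of -0.27 ± 0.99 (SE; edgeR adjusted p = 0.947) became 1.69 without mouse 1602.

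Notch3, the Notch receptor of arterial smooth muscle and pericytes, measured 0.455, 0.966 and 0.825 CPM in MLKL ASO mice 1603, 1604 and 1607, against 1.14, 0.736 and 0.369 CPM in control ASO mice 1601, 1602 and 1608. The groups were interleaved, on 26 to 92 counts per library. Group means were 0.749 ± 0.264 CPM with the MLKL ASO and 0.748 ± 0.386 CPM with the control ASO (SD, n = 3 each). Its 95% interval on the log2 scale, from -1.21 to 1.21, covered differences of either sign.

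**Figure D2:**
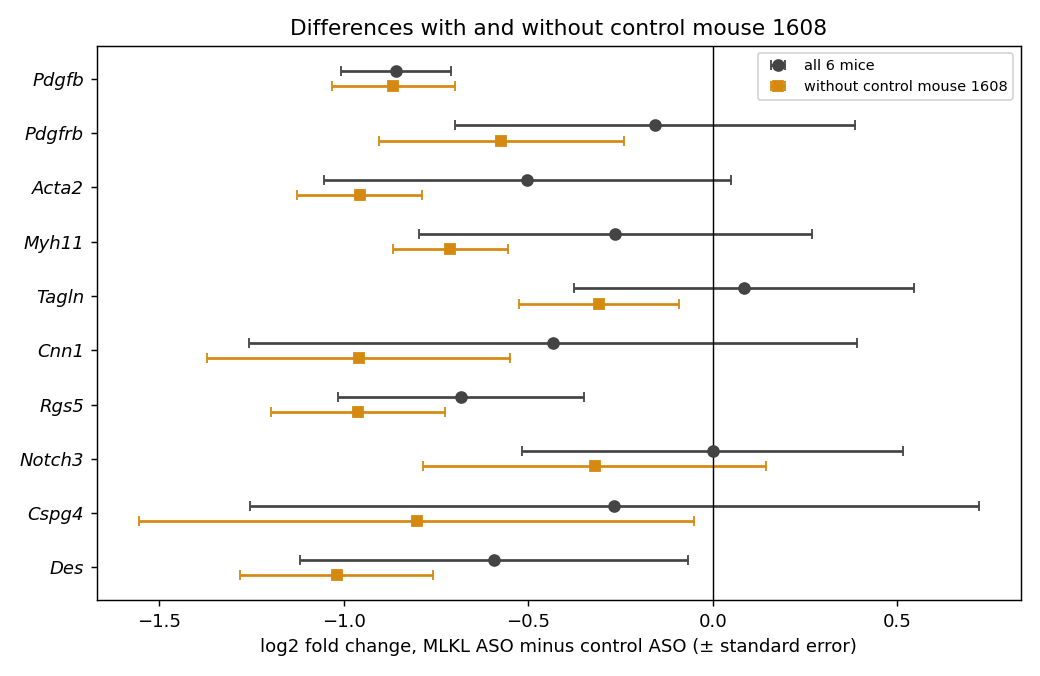
Log2 fold change of MLKL ASO minus control ASO from edgeR (horizontal axis, bars are standard errors) for each gene over all 6 mice (circles) and without control mouse 1608 (squares). Pdgfb stays at -0.86 and -0.87, while Acta2 goes to -0.96 and Des to -1.02 without mouse 1608, and all 10 squares lie below 0.

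Leaving out mouse 1608 moved the mural genes and hardly moved Pdgfb. Over all 6 mice, 8 of 10 genes had a log2 fold change below 0, with a median of -0.35, while 51.2% of all genes were below 0 with a median of -0.01. Without mouse 1608, 10 of 10 were below 0 with a median of -0.83, while 49.7% of all genes were below 0 with a median of 0.00. In these 5 mice the levels of 7 of the 10 genes were lower in each MLKL ASO mouse than in control mice 1601 and 1602 (Pdgfb, Pdgfrb, Acta2, Myh11, Cnn1, Rgs5 and Des), against 18.2% of all genes. At an unadjusted p under 0.05, 5 were lower (Pdgfb, Acta2, Myh11, Rgs5 and Des), against 8.66% of all genes lower and 6.53% higher, and 0 of 10 passed the adjusted threshold in edgeR, where the background was 0.0431% lower and 0.0479% higher. Without mouse 1601, by contrast, 5 of 10 genes lay below 0, 1 had an unadjusted p under 0.05 and 0 passed the adjusted threshold in edgeR (background 0.0147% lower and 0.0049% higher). Mouse 1608 was below every MLKL ASO mouse for 8 of the 10 genes, so leaving it out had to lower their log2 fold changes. Of all genes, 24.1% were lowest in mouse 1608, so the shares over all genes are not a like baseline. Several of the 10 genes also varied together across mice, so these counts are not of independent results.

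Mouse 1608 was the lowest of the 6 libraries for 8 of the 9 genes other than Pdgfb, and mouse 1601 or 1602 was the highest for 9 of 9. Over all genes tested, mouse 1608 alone was lowest in 24.1%. Some other cell type lists had the same low point and some did not. Mouse 1608 was lowest for 14 of 16 reticular fibroblast markers, 12 of 12 platelet and megakaryocyte markers, 5 of 7 mesothelial markers and 5 of 9 erythroid markers. The mesothelial count includes Msln and Lrrn4, which were at 0 in mouse 1602 as well. It was lowest for 4 of 12 macrophage markers, 3 of 12 further pericyte genes, 0 of 12 lymphocyte markers and 0 of 4 striated muscle markers, and highest for 10 of 12 endothelial markers. The fibroblast markers summed to 537 to 756 CPM in MLKL ASO mice, and to 766, 753 and 285 CPM in control ASO mice 1601, 1602 and 1608. Of the 16 markers, 6 had a log2 fold change below 0 and 10 above (median 0.22), with 0 called in edgeR. Without mouse 1608, 10 were below 0 (median -0.30). In this list Dpt and Cxcl13, chosen after their values were seen, were at 0.0851 and 7.26 CPM in mouse 1608. Lum, a collagen-binding proteoglycan, was low in all control ASO mice, at 0.508, 0.615 and 0 CPM in mice 1601, 1602 and 1608. It measured 2.47, 3.61 and 2.84 CPM in MLKL ASO mice 1603, 1604 and 1607. Its log2 fold change was 2.97 (edgeR adjusted p = 0.361, DESeq2 adjusted p = 0.0529), and 2.40 without mouse 1608. Ccl19, a chemokine gene of the same list, lay in the opposite direction. It measured 67.3, 66.2 and 54.0 CPM in MLKL ASO mice 1603, 1604 and 1607, against 145, 137 and 58.0 CPM in control ASO mice 1601, 1602 and 1608. The log2 fold change of Ccl19 was -0.86 (edgeR adjusted p = 0.386, DESeq2 adjusted p = 0.173), and -1.17 without mouse 1608. The part of such cells in the mural gene values was not tested.

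**Figure D3:**
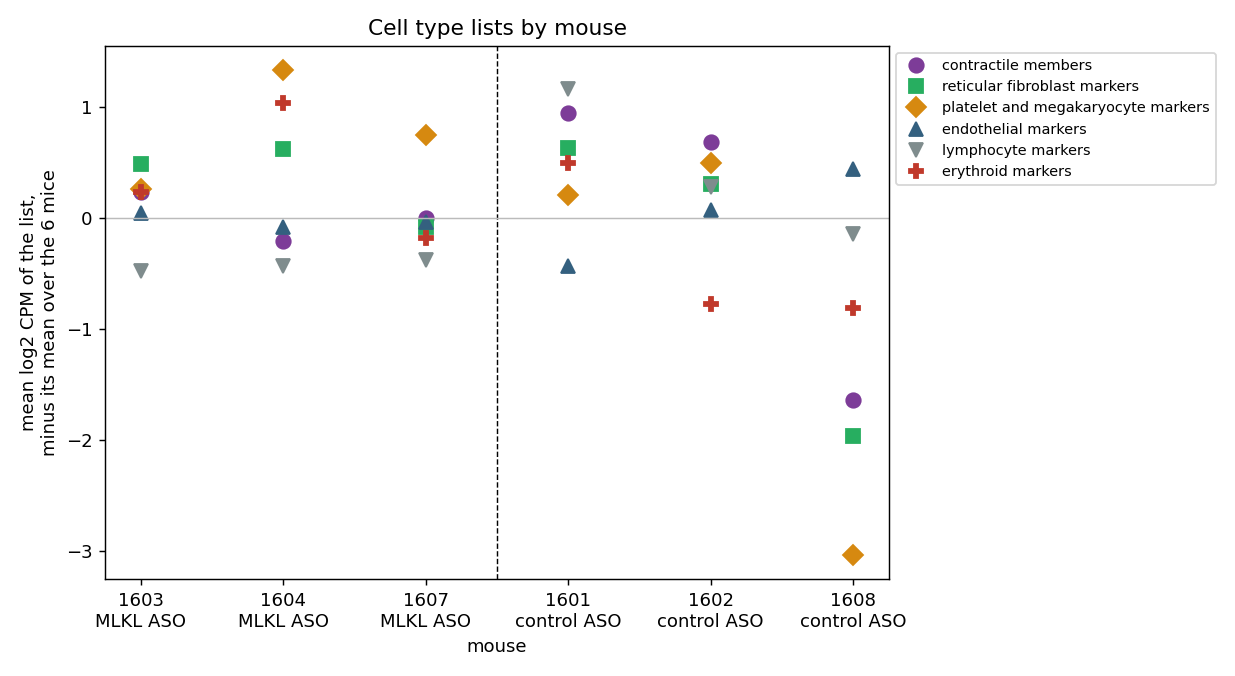
Mean log2 CPM of 6 gene lists in each mouse, each list centred on its own mean over the 6 mice (vertical axis, log2 units), with the 3 MLKL ASO mice left of the dashed line and the 3 control ASO mice right of it. In mouse 1608 the contractile genes, the reticular fibroblast markers and the platelet and megakaryocyte markers are at their lowest and the endothelial markers at their highest.

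A wider list of 18 contractile and cytoskeletal genes had 11 below 0 (median log2 fold change -0.20), and 14 without mouse 1608 (median -0.42), with 0 called in edgeR. Its members are not confined to smooth muscle, and mouse 1608 was lowest for 8 of them and highest for 4. Tpm2, a tropomyosin, measured 41.1 ± 2.2 CPM with the MLKL ASO and 64.3 ± 11.6 CPM with the control ASO (SD, n = 3 each), without overlap (edgeR adjusted p = 0.290, DESeq2 adjusted p = 0.0285). Csrp1, a LIM protein of the cytoskeleton, measured 16.0 ± 6.4 CPM with the MLKL ASO and 36.5 ± 1.05 CPM with the control ASO (SD, n = 3 each; edgeR adjusted p = 0.319, DESeq2 adjusted p = 0.0181). Smtn, smoothelin, measured 15.3 ± 1.26 CPM with the MLKL ASO and 28.4 ± 10.8 CPM with the control ASO, and Sncg, γ-synuclein, 19.3 ± 1.34 CPM with the MLKL ASO and 31.2 ± 9.82 CPM with the control ASO, all over 3 mice (DESeq2 adjusted p = 0.0730 for Smtn and 0.160 for Sncg). Unlike Acta2, Tpm2 and Smtn were highest in mouse 1608, at 77.6 and 40.7 CPM. Without that mouse their log2 fold changes were -0.49 and -0.53, against -0.65 and -0.89 over all mice.

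Of 14 further pericyte genes, 12 passed the filter, with 8 above 0 (median log2 fold change 0.09) and 0 called in edgeR. Anpep, the membrane aminopeptidase CD13, measured 28.0, 20.4 and 32.1 CPM in MLKL ASO mice, against 15.6, 9.51 and 14.7 CPM in control ASO mice (log2 fold change 1.02, edgeR adjusted p = 0.305, DESeq2 adjusted p = 0.0129). Rgs4, a relative of Rgs5, measured 28.2, 47.0 and 51.1 CPM in MLKL ASO mice, against 10.9, 21.2 and 25.2 CPM in control ASO mice, and so lay in the opposite direction to Rgs5 (log2 fold change 1.14, edgeR adjusted p = 0.342, DESeq2 adjusted p = 0.0596). Angpt1, the Tie2 ligand that mural cells secrete, measured 17.8, 33.1 and 18.9 CPM in MLKL ASO mice, against 14.2, 16.6 and 1.32 CPM in control ASO mice. Its log2 fold change was 1.12 (edgeR adjusted p = 0.603), and 0.60 without mouse 1608. That mouse was also lowest for 12 of 12 platelet and megakaryocyte markers, and the part of those cells in Angpt1 was not tested. Ebf1, a transcription factor of pericytes and B cells, measured 62.4, 49.0 and 97.3 CPM in MLKL ASO mice, against 141, 97.6 and 74.0 CPM in control ASO mice. Kcnj8 and Abcc9, which form a potassium channel used to mark pericytes and were chosen after their values were seen, were highest in mouse 1608, where Acta2, Pdgfrb and Cspg4 were lowest. Kcnj8 measured 305, 259 and 262 CPM in MLKL ASO mice, against 135, 255 and 372 CPM in control ASO mice 1601, 1602 and 1608, and Abcc9 measured 169, 184 and 159 CPM in MLKL ASO mice, against 77.5, 115 and 247 CPM in those control ASO mice. Without mouse 1608 their log2 fold changes were 0.49 for Kcnj8 and 0.83 for Abcc9 (edgeR adjusted p = 0.423 and 0.156). In those 5 mice the pericyte list, with Higd1b then also passing the filter, had 6 genes below 0 and a median of 0.28. The list thus did not share the negative values of the 10 genes there. Kcnj8 and Abcc9 were lowest in mouse 1601 and highest in mouse 1608, as was the summed level of the endothelial markers (3214 and 6000 CPM). Ebf1 is also a factor of B cells, so the list is not confined to pericytes. Which cells gave its RNA was not tested.

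Other genes of the PDGF system lay on both sides of 0. In a list of 15 ligands, receptors and partners, 8 were below 0 and 7 above (median log2 fold change -0.09), with 0 called in edgeR. Leaving out mouse 1608 gave 7 of 15 below 0 (median 0.09). Pdgfd, a ligand that also acts through PDGFRβ, measured 29.7, 32.0 and 28.4 CPM in MLKL ASO mice, against 34.9, 44.3 and 48.8 CPM in control ASO mice, without overlap (log2 fold change -0.51 ± 0.15, SE, edgeR adjusted p = 0.342, DESeq2 adjusted p = 0.136). Pdgfa, the ligand of PDGFRα, measured 14.9 ± 1.21 CPM with the MLKL ASO and 19.0 ± 2.75 CPM with the control ASO (SD, n = 3 each). Nrp1, a co-receptor of vascular growth factors, measured 118 ± 24.2 CPM with the MLKL ASO and 155 ± 31.8 CPM with the control ASO (SD, n = 3 each). The groups overlapped for Pdgfa and Nrp1 (edgeR adjusted p = 0.454 and 0.504). Ptpn12, a phosphatase that acts on PDGF receptors, measured 43.2 ± 10.8 CPM with the MLKL ASO and 28.7 ± 6.28 CPM with the control ASO (SD, n = 3 each; DESeq2 adjusted p = 0.242).

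Of 13 other genes by which endothelial and mural cells signal to or hold each other, 10 were below 0 (median log2 fold change -0.15) and 0 were called in edgeR. Leaving out mouse 1608 gave 7 of 13 below 0 (median -0.01). Cdh2, N-cadherin, the adhesion molecule between endothelium and mural cells, measured 2.34, 2.01 and 1.88 CPM in MLKL ASO mice, against 4.03, 3.82 and 3.59 CPM in control ASO mice, again without overlap (log2 fold change -0.88, standard error 0.23, edgeR adjusted p = 0.323, DESeq2 adjusted p = 0.00504). Edn1, the vasoconstrictor endothelin-1, measured 13.1, 17.0 and 14.2 CPM in MLKL ASO mice, against 18.8, 33.9 and 27.7 CPM in control ASO mice (log2 fold change -0.86, edgeR adjusted p = 0.327, DESeq2 adjusted p = 0.0505). Angpt2, which antagonises Tie2 and loosens the contact of mural cells, measured 40.3, 29.5 and 66.7 CPM in MLKL ASO mice, against 17.2, 25.9 and 30.9 CPM in control ASO mice, with overlap (log2 fold change 0.88, edgeR adjusted p = 0.386, DESeq2 adjusted p = 0.169). Sphk1, the kinase that makes sphingosine 1-phosphate, measured 34.7 ± 7.81 CPM with the MLKL ASO and 25.1 ± 7.71 CPM with the control ASO (SD, n = 3 each), with overlap (edgeR adjusted p = 0.527).

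**Figure D4:**
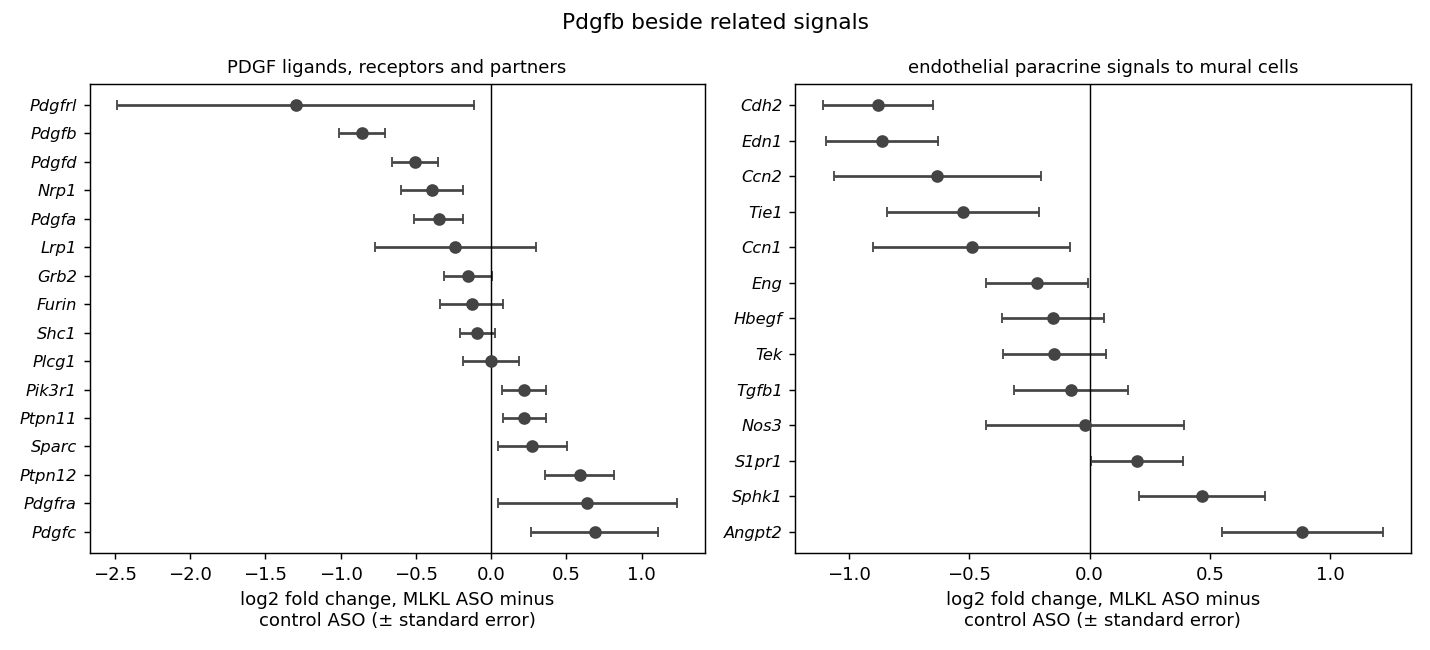
Log2 fold change of MLKL ASO minus control ASO from edgeR over all 6 mice (horizontal axis, bars are standard errors) for Pdgfb with the PDGF list (left) and for genes of endothelial to mural signalling (right), lowest at the top. Pdgfb at -0.86, Cdh2 at -0.88 and Edn1 at -0.86 lie on the left of 0 and Angpt2 at 0.88 on the right.

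Of 14 transcription regulators of smooth muscle, 13 passed the filter, 9 of them were below 0 (median log2 fold change -0.16) and 0 were called in edgeR. The number below 0 was 7 without mouse 1608 (median -0.06). Foxs1, a forkhead factor of pericytes, measured 3.25 ± 0.961 CPM with the MLKL ASO and 5.99 ± 1.31 CPM with the control ASO (SD, n = 3 each; edgeR adjusted p = 0.365, DESeq2 adjusted p = 0.110). Mrtfa, a cofactor of serum response factor, measured 5.73 ± 1.27 CPM with the MLKL ASO and 8.97 ± 3.16 CPM with the control ASO, and Srf itself 2.81 ± 0.244 CPM with the MLKL ASO and 3.70 ± 1.06 CPM with the control ASO (SD, n = 3 each). Elk1, which competes with such cofactors, measured 4.39 ± 0.282 CPM with the MLKL ASO and 5.85 ± 2.34 CPM with the control ASO (SD, n = 3 each). The groups overlapped for Mrtfa, Srf and Elk1 (edgeR adjusted p = 0.480, 0.618 and 0.640). Elk1 was at 8.37 CPM in mouse 1608, and its log2 fold change of -0.41 became -0.06 without that mouse. For Srf it went from -0.39 to -0.19.

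Of 13 Notch ligands, receptors and targets around Notch3, 12 were below 0 (median log2 fold change -0.26) and 0 were called in edgeR. Leaving out mouse 1608 gave 9 of 13 below 0 (median -0.12). Hey1, a target of Notch signalling, measured 9.47, 11.6 and 8.18 CPM in MLKL ASO mice, against 14.2, 18.7 and 15.1 CPM in control ASO mice (log2 fold change -0.71, edgeR adjusted p = 0.327, DESeq2 adjusted p = 0.0506). Hes1, another target, measured 16.9, 28.2 and 24.8 CPM in MLKL ASO mice, against 70.4, 234 and 30.8 CPM in control ASO mice, with mouse 1602 far above every other mouse (DESeq2 adjusted p = 0.127). Notch4, an endothelial receptor, measured 2.59 ± 0.201 CPM with the MLKL ASO and 3.69 ± 1.34 CPM with the control ASO, and the ligand gene Dll1 84.4 ± 16.0 CPM with the MLKL ASO and 55.4 ± 22.9 CPM with the control ASO (SD, n = 3 each). The groups overlapped for Notch4 and Dll1 (edgeR adjusted p = 0.552 and 0.460). Without mouse 1608 the log2 fold change of Notch4 went from -0.51 to -0.72 and that of Dll1 from 0.61 to 0.99. Heyl, a target of Notch3 in mural cells chosen here after its values were seen, measured 0.893, 0.861 and 0.813 CPM in MLKL ASO mice, against 1.83, 1.63 and 0.142 CPM in control ASO mice, with mice 1601 and 1602 above and mouse 1608 below the MLKL ASO mice, as for Acta2, Myh11, Cnn1 and Des.

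Markers of other cell types were present in every library. Mesothelial markers summed to 3.13 to 11.7 CPM in MLKL ASO mice and 0.880 to 8.86 CPM in control ASO mice, with 3 of 7 at 0 counts in mouse 1608, 6 of 7 log2 fold changes above 0 and a median of 0.48. Wt1, which the fibroblast list also holds, gave 1.84 to 5.96 CPM of this sum in MLKL ASO mice and 0.596 to 5.07 CPM in control ASO mice. Markers of striated muscle that passed the filter, 4 of 9, summed to 3.39 to 4.83 CPM in MLKL ASO mice and 2.54 to 4.37 CPM in control ASO mice, with 3 of 4 above 0 and a median of 0.59. Erythroid markers had 9 of 9 above 0 and a median of 0.50, and lymphocyte markers 12 of 12 below 0 and a median of -0.96, with 0 called in edgeR in any of these lists. At an unadjusted edgeR p under 0.05, 8 of 12 lymphocyte markers were lower (6.96% of all genes) and 2 of 9 erythroid markers higher (4.89% of all genes). Markers of 1 cell type are not independent results. DESeq2 adjusted p was 0.0317 for Cd3d, 0.0241 for Trbc2 and 0.0387 for Cd3e, T cell genes of the lymphocyte list. Without mouse 1608, over genes that then passed the filter, medians were 0.26 for mesothelial, 0.48 for striated muscle, 0.42 for erythroid and -1.25 for lymphocyte markers. The erythroid markers summed to 42458 to 97782 CPM in MLKL ASO mice and 28137 to 81060 CPM in control ASO mice, and the lymphocyte markers to 4208 to 5357 CPM in MLKL ASO mice and 5009 to 13301 CPM in control ASO mice.

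Likeness of pattern was measured as the root mean square difference of centred log2 CPM over the 6 mice, among 14468 other genes with a mean of at least 1 CPM. The genes nearest to Pdgfb were H2-K2 (0.08), Palld (0.09), Fez1 (0.09), Slc6a6 (0.10) and Ier2 (0.10). Palld, the actin-bundling protein palladin, measured 22.1, 22.6 and 24.2 CPM in MLKL ASO mice, against 38.2, 39.1 and 39.2 CPM in control ASO mice, and Slc6a6, the taurine transporter, 201, 198 and 208 CPM in MLKL ASO mice, against 356, 351 and 327 CPM in control ASO mice. The mural gene nearest to Pdgfb was Rgs5 at 0.47, and Cnn1 was farthest at 1.38. Those nearest to Myh11 were Mustn1 (0.11), Cryab (0.18), Gm45716 (0.20), Il33 (0.20) and Acta2 (0.20). Mustn1, a muscle-associated nuclear protein, measured 3.82, 4.09 and 4.53 CPM in MLKL ASO mice, against 6.48, 6.89 and 1.25 CPM in control ASO mice, and Cryab, the chaperone αB-crystallin, 5.57, 4.51 and 4.41 CPM in MLKL ASO mice, against 9.15, 8.43 and 2.11 CPM in control ASO mice. Tagln at 0.27, Pdgfrb at 0.30 and Des at 0.30 were also nearer to Myh11 than to Pdgfb, while Rgs5 was farther from Myh11 (0.61) than from Pdgfb. With 6 libraries these distances are a description and carry no test.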

How the data were processed

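RNA of splenic endothelial cells was sequenced from 6 mice, extracted with a Direct-zol kit and made into libraries with a directional NEBNext mRNA kit, per the labels' protocols. The submitters' processing notes name fastp 0.20.1, Salmon 1.3.0 and DESeq2 and no genome build or annotation. The authors deposited estimated counts per gene symbol, of which 69.3% are not whole. The authors also deposited a DESeq2 table that holds, per the file headers, a mean normalised signal, a log2 fold change with its standard error, a Wald score, a p-value and an adjusted p-value. The sign of the authors' log2 fold change was settled by its correlation with the one computed here (Pearson r = 0.977 across 19728 genes, which are not independent replicates).

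Rounded estimated counts were fitted with edgeR 4.0.16 in R 4.3.3 (default expression filter, TMM, glmQLFit and glmQLFTest, two-sided, Benjamini-Hochberg over all genes, threshold 0.05). Standard errors are the fitted log2 coefficient over the square root of F. The table holds 4 symbols that are numbers, left in place. Log2 CPM used a prior count of 2. DESeq2 1.42.0, limma 3.58.1, other scalings and filters, and leaving out each mouse were alternatives. Methods were tested on simulated data. Named genes are Mlkl, the 10 members, up to 4 genes of at least 1 CPM with the smallest unadjusted p from each of 15 lists, 5 nearest genes each for Pdgfb and Myh11, and 5 other actins; exceptions are said to be chosen after their values were seen. Not every gene this selects is reported here. The members and lists were chosen with earlier results of these data known. Where nothing else is stated, p-values measure the spread between 3 mice per group. With a mouse left out they rest on 3 mice against 2. Without mouse 1608 or mouse 1601, the 2 are control ASO mice. Promoter sequences are from RefSeq, GRCm38.p6.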

Additional observations from a re-analysis of the deposited data

How the results depend on the processing

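No paired analysis was possible because mouse numbers do not recur between the groups. The count of genes past the threshold, 2 in edgeR, was 4 with upper quartile scaling, 4 with scaling by endothelial marker counts, 22 with limma-voom and 515 with DESeq2 (224 higher and 291 lower), and ranged from 0 to 19 when each mouse was left out (19 without mouse 1608). The cause was not tested. Of the 10 genes, 0 passed under any of these settings except DESeq2, which called 1, Pdgfb, and 0 passed with any mouse left out. Pdgfb kept its sign under every alternative run. Notch3, at 0.00 on the log2 scale, changed sign with scaling by endothelial counts (-0.093), without a count filter (-0.0033) and in limma-voom (-0.053), and Tagln with scaling by endothelial counts (-0.042). With each mouse left out, the log2 fold change ranged from -0.57 to 0.14 for Pdgfrb, from -0.71 to 0.029 for Myh11, from -0.31 to 0.48 for Tagln, from -0.96 to 0.26 for Cnn1, from -0.32 to 0.42 for Notch3 and from -0.80 to 1.69 for Cspg4, so each of these changed sign. Acta2 (-0.96 to -0.10), Rgs5 (-0.96 to -0.48) and Des (-1.02 to -0.30) did not. The log2 ratio of the summed contractile genes ranged from -0.84 to -0.027. With at least 1 CPM in 3 libraries Notch3 and Cspg4 were not tested.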

Other observations

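Among endothelial markers, Emcn, the sialomucin endomucin, measured 45.5, 39.7 and 53.2 CPM in MLKL ASO mice, against 29.5, 35.8 and 36.3 CPM in control ASO mice (log2 fold change 0.45, edgeR adjusted p = 0.370, DESeq2 adjusted p = 0.192), while Tie1, an orphan receptor of endothelium, measured 206, 183 and 174 CPM in MLKL ASO mice, against 193, 189 and 427 CPM in control ASO mice. The log2 fold change of Tie1 was -0.52 over all mice and -0.03 without mouse 1608.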
